A study of Mus musculus with 12 samples.

Results

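The immediate early and heat shock genes described here are 33 genes, 26 of them immediate early and 7 heat shock, followed in pancreatic islets of mice that lack Sirt3 in beta cells and of wild type mice on 2 diets. They were listed by symbol and found by Ensembl identifier, with earlier results of these data known. All 33 were among the 54532 genes listed for each library, and all 33 were among the 16076 genes with enough counts to be tested. They fall into 8 genes of the AP-1 group (Fos, Fosb, Fosl2, Jun, Junb, Jund, Atf3 and Maff), 10 other transcription factors (Egr1, Egr2, Egr3, Nr4a1, Nr4a2, Nr4a3, Klf2, Klf4, Klf6 and Myc), 8 feedback regulators and other early genes (Ier2, Ier3, Ier5, Btg2, Dusp1, Zfp36, Gadd45b and Rhob) and 7 heat shock genes (Hspa1a, Hspa1b, Hsph1, Dnajb1, Hspb1, Hsp90aa1 and Hspa8).

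Immediate early genes are transcribed within minutes of a stimulus without new protein synthesis, because the factors that bind their promoters, such as CREB and the serum response factor with its partners, are already present and are switched on by calcium, cAMP and MAP kinases. Their mRNAs are short-lived, and several of their products, among them the phosphatase Dusp1 and the mRNA decay factor Zfp36, shut the response down again. Heat shock genes are driven by HSF1, which binds arrays of GAA units once unfolded protein draws chaperones away from it. In islets both groups are known to respond to glucose and depolarisation, to metabolic and oxidative stress and to the warm enzymatic digestion by which islets are freed.

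The libraries formed 4 groups of 3, all from male C57BL/6 mice labelled as 40 weeks old: knockout on high fat diet (HFD KO), wild type on high fat diet (HFD WT), knockout on standard diet (STD KO) and wild type on standard diet (STD WT). The knockout is labelled as selective for beta cells, and the labels do not name its Cre driver. The high fat diet took 60% of its calories from fat and lasted 36 weeks, against a standard diet with 6.2% fat. High fat feeding began after 6 weeks of standard food in HFD KO 1 and 3, after 5 weeks in HFD KO 2 and after 4 weeks in all 3 HFD WT libraries, so genotype and this earlier period cannot be told apart within the high fat groups. The weeks given for HFD KO add up to more than the age on the label. All islets were freed by the same protocol, with 0.8 mg/ml collagenase at 37 °C for 8 min, a vigorous shake of 10 s and a density gradient. Dates, batches, the time between digestion and lysis, and whether a group's libraries stand for separate animals are not in the labels, so the p-values measure the spread between these libraries.

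Promoter sequences of Fos, Btg2, Zfp36, Hspa1a and Hspa1b serve as examples of textbook elements that lie just before the start. Each printed window holds the element marked in it. Other genes with such an element before the start, among them Jun, Atf3 and Hspb1, are not printed. The sequences are from RefSeq (mouse build GRCm38.p6), are written from 5′ to 3′ on the strand of the gene, and run over the 250 bases before the annotated start. Capitals mark the TGACG core of the CREB element in Fos, the whole element TGACGTCA in Btg2, the CArG box, which the serum response factor binds, in Zfp36, and GAANNTTC, a pair of heat shock units, in Hspa1a and Hspa1b. The windows are chr12:85473640-85473889 (plus strand) for Fos, chr1:134079156-134079405 (minus) for Btg2, chr7:28379229-28379478 (minus) for Zfp36, chr17:34972157-34972406 (minus) for Hspa1a and chr17:34959239-34959488 (minus) for Hspa1b.
Fos: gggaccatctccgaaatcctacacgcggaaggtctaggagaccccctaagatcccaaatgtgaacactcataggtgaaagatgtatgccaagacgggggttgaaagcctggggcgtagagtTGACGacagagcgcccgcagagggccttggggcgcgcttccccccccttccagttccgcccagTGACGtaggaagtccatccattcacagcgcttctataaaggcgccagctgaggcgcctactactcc
Btg2: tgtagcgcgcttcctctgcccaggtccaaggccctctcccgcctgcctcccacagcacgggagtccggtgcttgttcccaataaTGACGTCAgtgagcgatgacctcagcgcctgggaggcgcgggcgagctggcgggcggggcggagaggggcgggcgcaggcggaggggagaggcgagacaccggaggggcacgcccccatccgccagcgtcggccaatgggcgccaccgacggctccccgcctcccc
Zfp36: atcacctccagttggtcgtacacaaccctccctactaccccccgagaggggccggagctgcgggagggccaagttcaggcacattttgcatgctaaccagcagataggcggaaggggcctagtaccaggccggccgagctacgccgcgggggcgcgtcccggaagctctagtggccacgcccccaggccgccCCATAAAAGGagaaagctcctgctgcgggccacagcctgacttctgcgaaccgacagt
Hspa1a: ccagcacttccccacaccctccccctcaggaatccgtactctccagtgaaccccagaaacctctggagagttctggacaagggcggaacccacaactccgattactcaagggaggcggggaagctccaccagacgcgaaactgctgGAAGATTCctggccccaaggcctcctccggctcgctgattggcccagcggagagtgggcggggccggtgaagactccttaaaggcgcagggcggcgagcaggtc
Hspa1b: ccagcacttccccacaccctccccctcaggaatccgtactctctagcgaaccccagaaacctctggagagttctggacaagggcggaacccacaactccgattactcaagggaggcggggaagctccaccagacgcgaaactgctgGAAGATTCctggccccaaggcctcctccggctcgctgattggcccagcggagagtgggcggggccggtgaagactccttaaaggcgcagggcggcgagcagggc
The Fos window held TGACG at 129 and 66 bases before the start, counted at the first base of each match (positions -129 and -66). In Btg2 the match began at -166, in Zfp36 at -58, and in both Hspa1a and Hspa1b at -104. The Hspa1a and Hspa1b promoters were identical at 296 of 300 bases (98.7%) when the 50 bases after the start were included.

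Of the 33 genes, 27 had an entry in the promoter table, which held 32851 promoters of 27025 genes, each 250 bases before and 50 bases after the start. Several genes have more than 1 entry, so a gene is counted where any of its promoters matched. TGACG, searched on both strands, was found in 15 of the 27 genes (55.6%), against 23.0% of all genes in the table. By single promoters it was found in 18 of 35 (51.4%), against 20.8% of all. The full element TGACGTCA, which contains TGACG, was found in 3 (Btg2, Dusp1 and Maff), against 2.03% of all genes. GAANNTTC was found in 6 (Fosl2, Jun, Hspa1a, Hspa1b, Hspb1 and Hsph1), which are 4 of the 5 heat shock genes in the table and 2 of the 22 early genes, against 9.04% of all genes. The heat shock element with another GAA unit after it was found in Hsph1, against 0.662% of all genes. A CArG box was found in Egr2 and Zfp36, against 1.81% of all genes, and the AP-1 element TGANTCA in 0 of the 27, against 8.97%. By single promoters these elements were found in 1.79% (TGACGTCA), 7.86% (GAANNTTC), 0.603% (with the further GAA unit), 1.63% (CArG) and 7.81% (TGANTCA) of the table. A match is a run of letters, not a measured site.

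Library totals ran between 16037709 and 20864920 counts. Levels of a gene are given as CPM, counts scaled to the TMM-adjusted library size, and levels of different genes are compared only as deposited FPKM, which also divide by length. Sirt3, the targeted gene, had 7.85, 11.5 and 6.21 CPM in HFD KO, against 11.4, 9.30 and 11.8 CPM in HFD WT, and 6.59, 5.97 and 5.86 CPM in STD KO, against 9.04, 11.3 and 11.5 CPM in STD WT. The library labelled HFD KO 2 lay in the wild type range, and neither difference passed (log2 fold change -0.35, adjusted p = 0.363 on the high fat diet, and -0.79, adjusted p = 0.156 on the standard diet, edgeR quasi-likelihood test). The islet label held: Ins1 and Ins2 together took 19.7% to 33.5% of counts, and all 9 beta cell markers were detected in every group. Markers of acinar cells, which are not part of islets, summed to between 5713 and 31056 CPM, so the libraries were not of endocrine cells alone.

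Most of the 33 genes were abundant. The early genes ranged from a mean of 3.12 FPKM over the 12 libraries for Nr4a3 to 789.8 FPKM for Fos, which ranked 62 among the 29339 genes with a count. The heat shock genes ranged from 15.2 FPKM for Hspa1a to 888 FPKM for Hspa8, the constitutive cytosolic Hsp70, which ranked 53. The length behind the FPKM was the mean over annotated transcripts for 32 of the 33 genes (1092 bases for Fos, whose longest transcript has 2108), so the FPKM of genes with short annotated fragments is higher than their longest transcript would give. Together the 33 genes took 0.398% of counts in HFD WT 1, the lowest library, and 1.06% in STD WT 1, the highest.

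**Figure D1:**
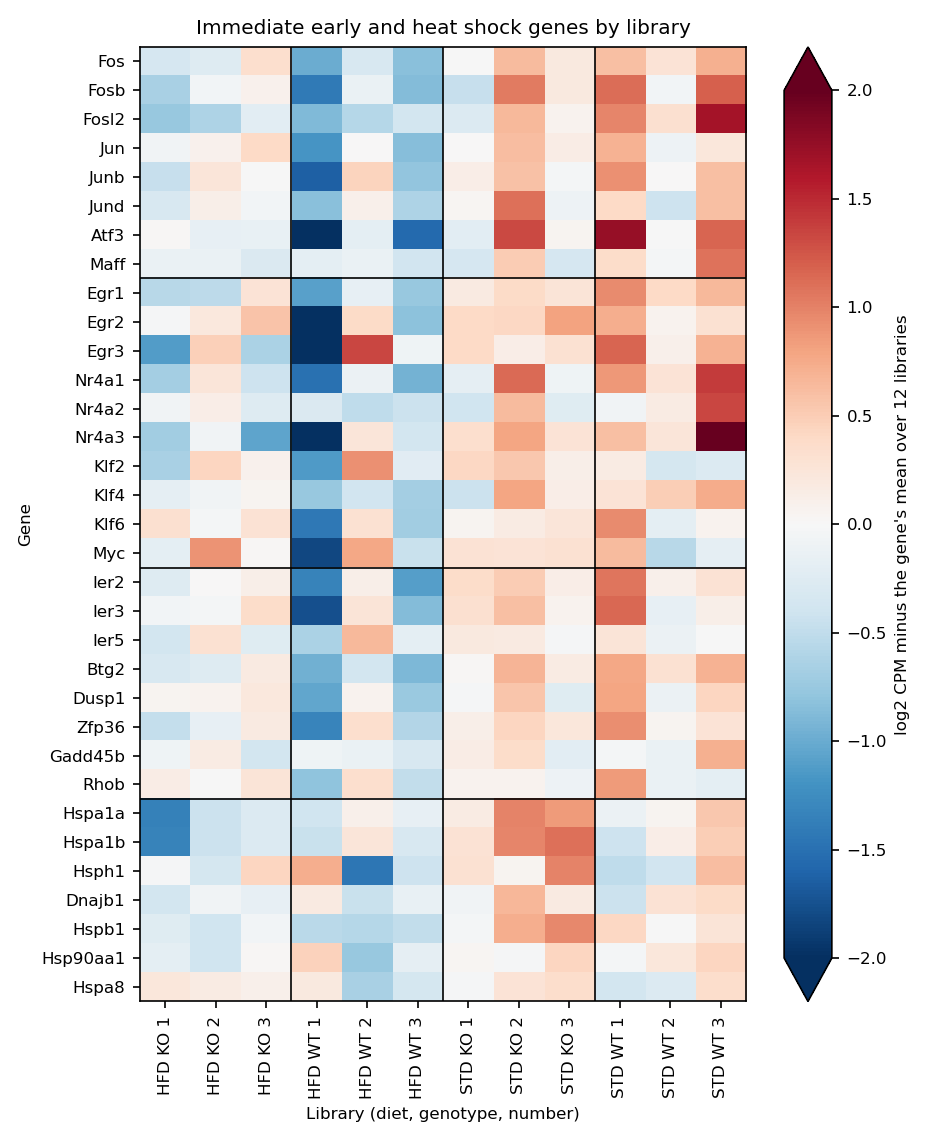
Levels of the 33 genes in each of the 12 libraries, as log2 CPM minus the gene's mean over all libraries (colour, capped at 2 in each direction); rows are genes in the order AP-1, other transcription factors, feedback regulators and heat shock genes, and columns are libraries by group. HFD WT 1 is blue over nearly all early genes, STD WT 1, STD WT 3 and STD KO 2 are red, and the 7 heat shock rows follow another order of libraries.

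The early genes varied between libraries of the same group as well as between groups, as the heat map shows. HFD WT 1 was the lowest of the 12 libraries for 23 of the 26 early genes, with a median deviation of -1.15 (log2) from the gene means, and HFD WT 3 followed at -0.69. The third library of that group, HFD WT 2, stood at 0.09, close to the mean of all libraries. At the other end STD WT 1 was the highest library for 11 early genes (median deviation 0.78), and STD WT 3 for 8 (0.62), while STD WT 2 stood at 0.00. STD KO 2 (0.57) stood above STD KO 1 (0.07) and STD KO 3 (0.13), and the 3 HFD KO libraries lay between -0.29 and 0.06.

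By group means, HFD WT had the lowest level for 22 of the 26 early genes and STD WT the highest for 21. The spread within a group was uneven: the median coefficient of variation of the early genes was 20.1% in HFD KO, 45.7% in HFD WT, 21.8% in STD KO and 35.2% in STD WT. The heat shock genes ordered the groups otherwise. STD KO had the highest mean for 6 of the 7, and the lowest lay in HFD KO for 4 and in HFD WT for 3. Among libraries, STD KO 3 (median deviation 0.85) and STD KO 2 (0.66) were highest for the heat shock genes and HFD WT 2 (-0.57) was lowest. The ratio of the highest to the lowest library was 2.12 to 29.5 for the early genes (median 4.46) and 2.01 to 5.47 for the heat shock genes (median 2.9).

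With edgeR's quasi-likelihood test and Benjamini-Hochberg adjustment over 16076 genes, 0 of the 33 genes passed an adjusted p of 0.05 in any comparison. The same test called 0% of all genes for high fat against standard diet in WT, 0.0435% for that diet comparison in KO, 7.4% for KO against WT on the high fat diet, 1.71% for KO against WT on the standard diet and 0% for the interaction. At an unadjusted p under 0.05 the counts were 17 of 33 (51.5%) for the diet comparison in WT, against 4.74% of all genes, and 3 (9.09%) for the diet comparison in KO, against 12.5%. They were 3 for KO against WT on the high fat diet, against 24.3% of all genes, 1 on the standard diet, against 8.66%, and 5 for the interaction, against 7.91%. DESeq2 called 5 of the 33 lower in HFD WT than in STD WT, against 0.205% of all genes, and 2 lower in HFD KO than in STD KO, against 0.236%. It called 0 of the 33 for KO against WT on the high fat diet, on the standard diet and for the interaction, where it called 12.6%, 3.01% and 0.187% of all genes. Moderated tests on log2(FPKM + 1) with limma called 0 of the 33 in all 5 comparisons. Of all genes they called 0% for the diet comparison in WT, 0.0133% for that in KO, 6.98% for KO against WT on the high fat diet, 1.91% on the standard diet and 0% for the interaction. KO against WT on the high fat diet and the diet comparison in WT share the HFD WT libraries. KO against WT on the standard diet and the diet comparison in WT share the STD WT libraries. The interaction is formed from the same group means. The values of these comparisons are therefore given side by side and not as separate support. Many early genes also differed together between libraries of a group. The genes counted within a comparison, here and below, are therefore not separate results either.

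**Figure D2:**
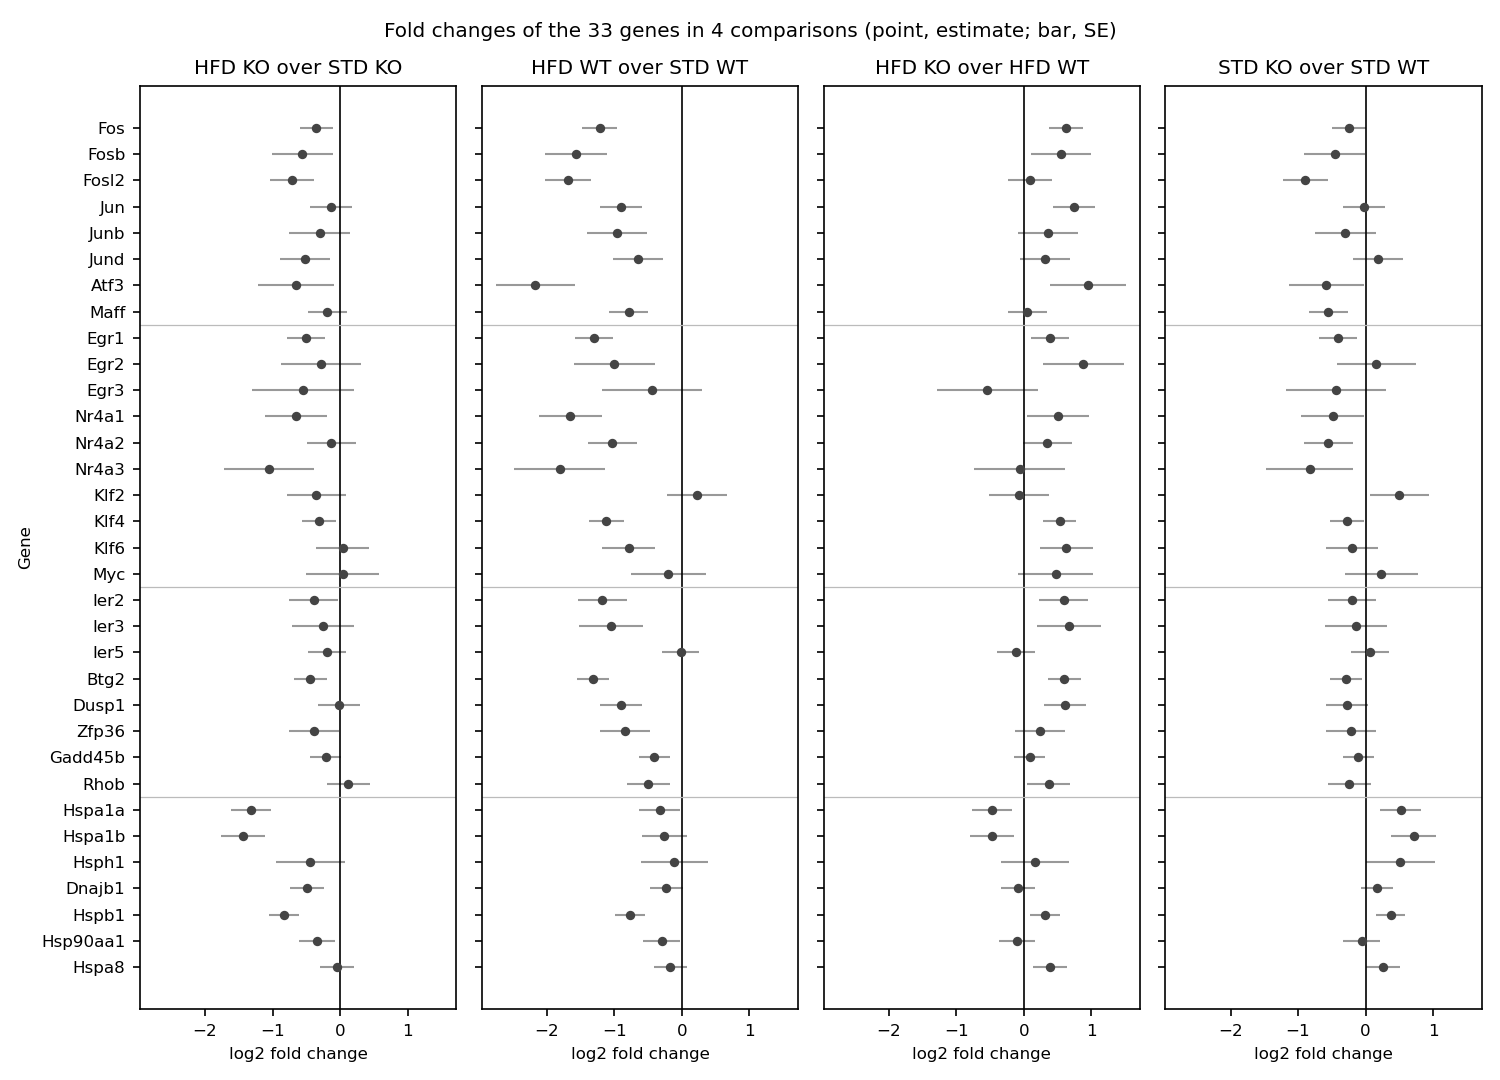
Log2 fold change (point) and its SE (bar) of each of the 33 genes in 4 comparisons from the edgeR fit, with genes down the page in the same order of roles. For HFD WT over STD WT, 32 of the 33 points lie below 0; for HFD KO over STD KO, 30 do, with Hspa1a and Hspa1b farthest left.

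In WT islets the early genes had lower means on the high fat diet almost throughout, with no call by edgeR. The log2 fold change was negative for 25 of the 26, with a median of -0.98, against 0.01 over all genes tested. In KO islets it was negative for 23 of the 26, with a median of -0.33, against -0.03 over all genes, and that median was -0.10 without STD KO 2. All 3 HFD WT libraries lay below all 3 STD WT libraries for 10 of the 26 early genes and for 1 heat shock gene, against 4.53% of all genes lower without overlap, and 0 of the 33 lay above, against 5.06%. All 3 HFD KO libraries lay below all 3 STD KO libraries for 2 early genes (Nr4a3 and Ier2) and 4 heat shock genes, against 6.23% of all genes, and again 0 lay above, against 5.91%. In bulk RNA, fewer cells that express a gene and less of its RNA per cell cannot be told apart.

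The median for the early genes in WT rested in part on 2 libraries. Without HFD WT 1 and STD WT 1 together, a setting added after seeing the data, it was -0.51, and leaving out any 1 library gave -1.39 to -0.69. Levels of cell markers also differed between these groups. The 6 alpha cell markers all had negative values for the diet comparison in WT (median -0.59), and their sum was 19649 to 23680 CPM in HFD WT, below the 27723 to 35157 CPM of STD WT. Of 9 stellate cell and fibroblast markers, 8 were negative (median -0.84), with sums of 185 to 286 CPM in HFD WT, against 277 to 427 CPM in STD WT, overlapping. The 6 lymphocyte markers were all positive (median 0.64), with sums of 23.9, 484 and 151 CPM in HFD WT, against 238, 124 and 80.2 CPM in STD WT. Of 7 ductal markers, 6 were negative (median -0.50). Their sum was 535, 1045 and 631 CPM in HFD WT, against 1671, 662 and 563 CPM in STD WT. It was highest in HFD WT 2 and STD WT 1, and STD WT 3, also high in early genes, had the lowest sum of its group. Of 9 acinar markers, 8 were positive (median 0.48), as were 4 of 5 erythrocyte markers (0.55), while 8 of 9 endothelial markers were negative (-0.18). The medians were 0.07 for beta cell, -0.06 for macrophage and -0.06 for delta and PP cell markers. All markers of these lists had counts in every group, and their part in the early gene levels was not tested.

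The AP-1 group holds the subunits of the dimeric factor AP-1 and their close relatives. Fos, the archetypal early gene (chr12:85473890-85477273, mm10, plus strand), had 402, 642 and 449.8 CPM in HFD WT, against 1214, 964 and 1305 CPM in STD WT. The groups did not overlap, and even HFD WT 2, the highest of its group, lay below all standard diet libraries of either genotype. Its log2 fold change between the diets was -1.22 (SE 0.26, adjusted p = 0.551 in edgeR and 0.00133 in DESeq2). In KO islets Fos had 635, 669 and 1008 CPM on the high fat diet, against 792, 1234 and 912.5 CPM on the standard diet. HFD KO 3 lay above 2 of the STD KO libraries, so these groups overlapped (log2 fold change -0.35, adjusted p = 0.589).

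Fosb, which forms AP-1 with Jun proteins and is close kin of Fos, had 121, 293 and 177 CPM in HFD WT, against 698, 312 and 739 CPM in STD WT. STD WT 2 lay just above HFD WT 2, and the other 2 STD WT libraries lay far above the whole HFD WT group. Fosl2, a Fos relative with a longer-lived product, had 19.1, 23.7 and 27.3 CPM in HFD WT, against 69.5, 44.3 and 113 CPM in STD WT, again without overlap. The log2 fold changes in WT were -1.57 (SE 0.46, adjusted p = 0.884) for Fosb and -1.69 (SE 0.34, adjusted p = 0.551) for Fosl2. Fosl2 was also the only one of the 33 genes at an unadjusted p under 0.05 for KO against WT on the standard diet, with 29.2, 55.6 and 37.4 CPM in STD KO, overlapping the STD WT values (log2 fold change -0.89, SE 0.33, adjusted p = 0.369). That value was -0.48 when STD WT 3 was left out.

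Atf3, a stress-induced repressor of the ATF family, showed the widest range of the AP-1 group. It had 123, 108 and 109.8 CPM in HFD KO, 30.1, 106 and 41.3 CPM in HFD WT, 105, 304 and 126 CPM in STD KO and 405, 121 and 273 CPM in STD WT. HFD KO was tight and lay just above all 3 HFD WT libraries, while STD WT 2 and 2 of the STD KO libraries lay close to the HFD KO level. Log2 fold changes were -2.17 (SE 0.58, adjusted p = 0.783) for the diet comparison in WT and 0.95 (SE 0.56, adjusted p = 0.335) for KO against WT on the high fat diet, where leaving out HFD WT 2 gave 1.66 and leaving out HFD WT 1 gave 0.63.

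Jun, the main partner of Fos, had 441, 488 and 604 CPM in HFD KO, 204, 461.5 and 255 CPM in HFD WT, 464, 709 and 512 CPM in STD KO and 748.5, 429.8 and 538 CPM in STD WT. Only HFD WT 1 and HFD WT 3 lay apart from the other 10 libraries, and HFD WT 2 lay within the range of HFD KO. The log2 fold change for KO against WT on the high fat diet was 0.74 (SE 0.31, adjusted p = 0.173), and without HFD WT 2 it was 1.14 and passed (adjusted p = 0.032). An antisense gene, Junos, overlaps Jun and shared 4.3% of its 100-base stretches. Since the labels do not give the strand setting of the counting, reads of the 2 genes may be mixed. The same holds for Junb with Prdx2 and, more widely, for Jund with Gm11175 (43.5% of stretches).

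Junb, Jund and Maff, a small Maf protein that pairs with other leucine zipper factors, completed the group. Their log2 fold changes for the diet comparison in WT were -0.96, -0.65 and -0.79, and Maff alone of the 3 had no overlap between HFD WT and STD WT. The Junb value was -1.69 without HFD WT 2 and -0.60 without HFD WT 1, and the Maff value was -0.41 without STD WT 3. All 8 AP-1 genes had negative values for both diet comparisons (medians -1.09 in WT and -0.43 in KO) and positive values for KO against WT on the high fat diet (median 0.45).

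**Figure D3:**
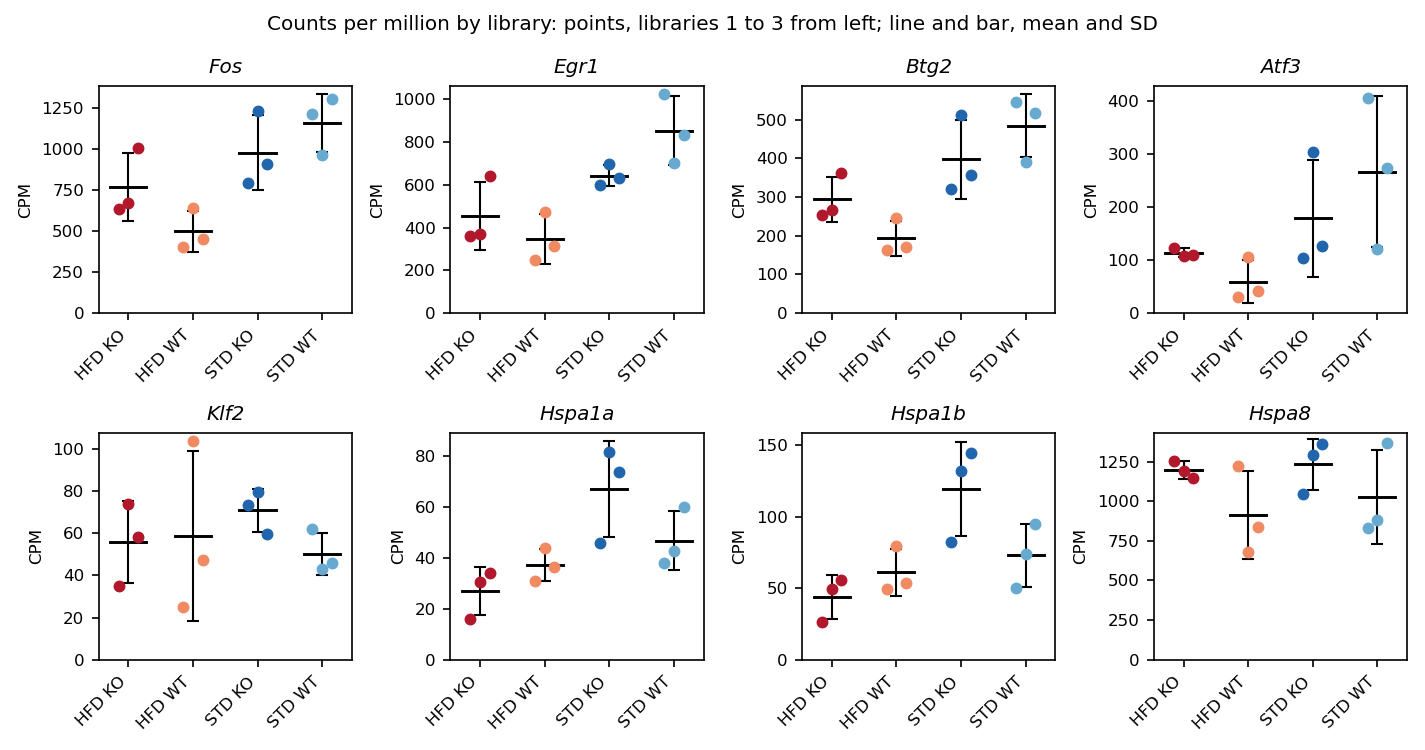
CPM of 8 of the genes in each library (points, libraries 1 to 3 from left within a group), with the group mean and SD (line and bar, n = 3); every vertical axis starts at 0. Fos, Egr1 and Btg2 share one pattern, with HFD WT lowest and STD WT highest, while Hspa1a and Hspa1b are highest in STD KO and lowest in HFD KO, and Hspa8 overlaps in all groups.

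Among the other transcription factors, Egr1, a zinc finger factor induced by growth factors and glucose (chr18:34859823-34864984, plus strand), had the same order of group means as Fos. It had 359, 368 and 638 CPM in HFD KO, 249, 475 and 315 CPM in HFD WT, 599, 695 and 633 CPM in STD KO and 1022, 702 and 832 CPM in STD WT. Its HFD WT group lay below all STD WT libraries (log2 fold change -1.30, SE 0.28, adjusted p = 0.551 in edgeR and 0.00245 in DESeq2). It was also the 1 gene of the 33 whose STD KO libraries all lay below the STD WT libraries, against 7.32% of all genes, and 0 of the 33 lay above, against 7.52% (log2 fold change -0.41, SE 0.28, adjusted p = 0.884).

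Egr2 and Egr3, its relatives, were 16.2 and 17.9 times as high in their highest library as in HFD WT 1, where Egr2 had 0.804 CPM and Egr3 2.63 CPM. Egr3 was highest in HFD WT 2 (47.2 CPM), so the highest and the lowest value came from 1 group. The Nr4a genes encode orphan nuclear receptors that cAMP and calcium induce strongly. Nr4a1 had 66.2, 173 and 97.1 CPM in HFD WT, against 340.2, 226 and 491 CPM in STD WT, without overlap (log2 fold change -1.65, SE 0.47, adjusted p = 0.845). Nr4a2 likewise did not overlap, with 10.8 to 12.6 CPM in HFD WT, against 14.7 to 39.2 CPM in STD WT. For Nr4a3 the diet groups did not overlap in KO, with 3.64 to 7.32 CPM in HFD KO, against 9.28 to 13.3 CPM in STD KO (log2 fold change -1.05, SE 0.67, adjusted p = 0.531).

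Klf4, a zinc finger factor linked to growth arrest, had 30.6, 39.6 and 32.2 CPM in HFD WT, against 62.7, 72.4 and 86.8 CPM in STD WT. HFD WT lay below every library of the other 3 groups, save that HFD WT 2 lay above STD KO 1 (38.3 CPM). Log2 fold changes were -1.12 (SE 0.26, adjusted p = 0.557 in edgeR and 0.0233 in DESeq2) for the diet comparison in WT and 0.53 (SE 0.25, adjusted p = 0.225) for KO against WT on the high fat diet, where the groups did not overlap. Klf2, best known from endothelial cells, was the exception among the 33 genes, with a positive value in WT. It had 25, 104 and 47.3 CPM in HFD WT, against 61.9, 43 and 45.7 CPM in STD WT, so both its extremes lay in HFD WT (log2 fold change 0.22, SE 0.44, adjusted p = 1). That sign turned without HFD WT 2 (-0.45). Klf6 and Myc also had HFD WT 1 lowest, at 43.8 and 6.49 CPM, while HFD WT 2 stood at 145 and 39.7 CPM.

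Btg2, an antiproliferative gene that also takes part in mRNA decay (chr1:134075170-134079120, minus strand), gave the smallest p of the 33 genes. It had 255, 265 and 361.5 CPM in HFD KO, 164, 246 and 170.3 CPM in HFD WT, 322, 513 and 358 CPM in STD KO and 545, 392 and 517 CPM in STD WT. HFD WT lay below every library of the other 3 groups. Log2 fold changes were -1.32 (SE 0.24, adjusted p = 0.499 in edgeR and 0.000104 in DESeq2) for the diet comparison in WT and 0.60 (SE 0.24, adjusted p = 0.144) for KO against WT on the high fat diet. Leaving out any 1 library gave -1.51 to -1.22 for the diet comparison in WT.

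Dusp1, the phosphatase that switches off MAP kinases, had 143, 310.4 and 177 CPM in HFD WT, against 508, 271 and 396 CPM in STD WT, with HFD WT 2 inside the STD WT range (log2 fold change -0.90, SE 0.31, adjusted p = 0.958). In KO the diets overlapped throughout, with 308 to 343 CPM in HFD KO, against 251 to 433 CPM in STD KO. Zfp36, which binds AU-rich elements and hastens mRNA decay, had 93.2, 294 and 155 CPM in HFD WT, against 445, 243 and 282.5 CPM in STD WT. Ier2, a growth-factor-induced early gene, was 117 to 152 CPM in HFD KO, against 155 to 200.1 CPM in STD KO, without overlap though close at the nearest pair (152 CPM in HFD KO 3 and 155 CPM in STD KO 3). Ier3, a regulator of cell survival, had 5.42 CPM in HFD WT 1, its lowest library, and 41.5 CPM in STD WT 1, its highest.

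The last 3 genes of this role varied least. Ier5, an early gene also linked to HSF1, had a log2 fold change of -0.02 in WT, Gadd45b, a stress-induced growth arrest gene, -0.41, and Rhob, a short-lived small GTPase, -0.50. Single libraries decided these values: Gadd45b was -0.09 without STD WT 3, Rhob -0.08 without STD WT 1, and Ier5 0.22 without HFD WT 1. Over the 8 feedback regulators and other early genes the median was -0.87 for the diet comparison in WT and -0.23 in KO.

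Among the heat shock genes, the pair Hspa1a and Hspa1b had the most negative diet values, and these were in KO islets. Hspa1a, 1 of the 2 stress-inducible Hsp70 genes (chr17:34969190-34972156, minus strand), had 16, 30.5 and 33.9 CPM in HFD KO, against 45.8, 81.4 and 73.6 CPM in STD KO. Hspa1b, its neighbour (chr17:34956436-34959238, minus strand), had 26.5, 49.7 and 55.9 CPM in HFD KO, against 82.4, 132 and 145 CPM in STD KO. For both genes all HFD KO libraries lay below all STD KO libraries, and HFD KO 1 was the lowest of the 12. The log2 fold changes were -1.32 (SE 0.30, adjusted p = 0.293 in edgeR and 0.0082 in DESeq2) for Hspa1a and -1.44 (SE 0.33, adjusted p = 0.293 in edgeR and 0.00753 in DESeq2) for Hspa1b. Without HFD KO 3 both passed with edgeR, at -1.50 (adjusted p = 0.0466) and -1.62 (adjusted p = 0.0494), against 1.06% of all genes called lower in that fit.

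The 2 genes cannot be read apart with certainty, since 47.1% of the 100-base stretches of Hspa1a and 49.9% of those of Hspa1b were shared between them. Their sum was 42.5, 80.2 and 89.7 CPM in HFD KO, 80.2, 124 and 90.3 CPM in HFD WT, 128, 213 and 218 CPM in STD KO and 88.2, 116 and 154 CPM in STD WT. The sum therefore kept the same order, with no overlap between HFD KO and STD KO and with overlap between HFD WT and STD WT. In WT the log2 fold changes were -0.33 for Hspa1a and -0.26 for Hspa1b, and without STD WT 3 they were -0.11 and -0.03.

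Hspb1, a small heat shock protein that holds unfolded protein, had 19.4, 17.3 and 21.9 CPM in HFD KO, 15.7, 15.4 and 16.3 CPM in HFD WT, 22.2, 37.8 and 44.5 CPM in STD KO and 30.6, 22.8 and 27.2 CPM in STD WT. All 6 high fat libraries lay below all 6 standard diet libraries, though HFD KO 3 and STD KO 1 lay close. Log2 fold changes were -0.83 (SE 0.22, adjusted p = 0.314) in KO and -0.77 (SE 0.22, adjusted p = 0.845) in WT. A processed copy, Hsp25-ps1, holds 42.7% of its 100-base stretches, so its counts are uncertain too. Dnajb1, the Hsp40 partner that delivers clients to Hsp70, had 70.6, 86.6 and 81.6 CPM in HFD KO, against 87.3, 144 and 104 CPM in STD KO, again without overlap (log2 fold change -0.49, SE 0.25, adjusted p = 0.435, and -0.26 without STD KO 2).

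Hsph1, an exchange factor for Hsp70, had 131, 105 and 180.2 CPM in HFD KO, 220.1, 48.8 and 99.8 CPM in HFD WT, 164, 138 and 264 CPM in STD KO and 93.9, 102 and 203 CPM in STD WT. Hsp90aa1, the inducible Hsp90, ranged from 297 CPM in HFD WT 2 to 688.5 CPM in HFD WT 1. These 2 chaperones thus ordered the HFD WT libraries opposite to the early genes, with HFD WT 1 highest. Hspa8 had 1255, 1190.4 and 1143 CPM in HFD KO, 1223, 679.8 and 838 CPM in HFD WT, 1047, 1289.8 and 1359 CPM in STD KO and 828, 881 and 1368.5 CPM in STD WT. Its groups overlapped in every comparison. Shared stretches with other genes made up 47.5% for Hsp90aa1 and 32.1% for Hspa8.

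Set over all 7 heat shock genes, the median log2 fold change for high fat against standard diet was -0.49 in KO and -0.26 in WT, all 7 values being negative in each. The WT median was -0.07 without HFD WT 2 and -0.45 without STD WT 1. For KO against WT on the standard diet 6 of the 7 values were positive (median 0.37, with 0.19 without STD KO 3 and 0.58 without STD KO 1), led by Hspa1b (0.71, SE 0.33, adjusted p = 0.593). Cell markers differed for the diet comparison in KO too. The 5 erythrocyte markers were all positive (median 1.07), as were 6 of 9 macrophage markers (0.43). Negative values were found for 4 of 6 alpha cell (-0.39), 5 of 9 beta cell (-0.22) and 5 of 6 lymphocyte markers (-0.19). Their part in the heat shock values was not tested.

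The values for KO against WT had mostly opposite signs on the 2 diets, with no call on either. On the high fat diet 22 of the 26 early genes were positive for KO against WT (median 0.43, with 0.22 without HFD WT 1 and 0.78 without HFD WT 2), and 4 early genes (Atf3, Nr4a2, Klf4 and Btg2) and Hspb1 lay higher in KO without overlap, which is 5 of 33, against 11.2% of all genes. In the other direction 0 of the 33 lay lower without overlap, against 13.3%. Fos, Jun and Btg2 had an unadjusted p under 0.05. Offsets corrected for gene length turned the signs of Gadd45b (-0.15), Nr4a3 (0.13), Ier5 (0.07) and the heat shock gene Dnajb1 (0.06). Without HFD KO 2, whose Sirt3 level lay in the wild type range, 0 of the 33 passed in any comparison and the early median for KO against WT on the high fat diet was 0.35. On the standard diet 21 of the 26 were negative (median -0.26, with -0.12 without STD WT 1). Without HFD WT 2, 3 genes passed for KO against WT on the high fat diet: Jun, Ier2 (1.17, adjusted p = 0.0269) and Klf6 (1.20, adjusted p = 0.046), or 3 of 33, against 3.47% of all genes called higher in that fit. The sum over 9 macrophage markers, all detected, was 321 to 387 CPM in HFD KO, above the 158 to 238.5 CPM of HFD WT, and all 9 were positive (median 0.95). Of the 9 stellate cell and fibroblast markers, 8 were positive (median 1.08), with sums of 343, 229 and 600 CPM in HFD KO, against 185, 286 and 251 CPM in HFD WT, overlapping. Of 9 beta cell markers, 6 were negative (median -0.38), and of 6 alpha cell markers, 5 were positive (median 0.21). The 9 acinar (median -0.54) and 6 lymphocyte markers (-0.46) were all negative, and the 5 erythrocyte markers all positive (0.34). edgeR called 2 macrophage markers and 1 alpha cell marker higher, against 3.9% of all genes, and 1 beta cell marker lower, against 3.5%. For KO against WT on the standard diet the 9 macrophage markers were likewise all positive (median 0.47). In edgeR 4 of them had an unadjusted p under 0.05 (44.4%, against 8.66% of all genes) and 0 were called. The 6 lymphocyte markers were all positive there (0.32), and the 4 delta and PP cell markers all negative (-0.05). Of 6 alpha cell markers, 5 were negative (-0.28), as were 5 of 7 ductal (-0.39) and 8 of 9 acinar markers (-0.18). The part of these markers in the values of the 33 genes was not tested.

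The test of the difference itself, the interaction of genotype and diet, called 0 of the 33 genes. The values were positive for 23 of the 26 early genes (median 0.78) and negative for 6 of the 7 heat shock genes (median -0.25), and length-corrected offsets turned the signs of Gadd45b (-0.04), Egr3 and Hspa8, the last 2 to 0.00. The heat shock median was -0.02 without STD KO 3. For the interaction the 9 stellate cell and fibroblast markers were likewise all positive (median 1.13). So were the 7 ductal (0.62), 5 erythrocyte (0.57) and 4 delta and PP cell markers (0.15). Of 9 macrophage markers, 8 were positive (0.37), and of 6 alpha cell markers, 5 were (0.42). The 6 lymphocyte (median -0.78) and 9 acinar markers (-0.51) were all negative. The part of these lists in the interaction of the 33 genes was not tested. The smallest p belonged to Btg2 (0.89, SE 0.33, adjusted p = 0.621), followed by Hspa1b (-1.18, SE 0.47, adjusted p = 0.621) and Fos (0.88, SE 0.36, adjusted p = 0.621). The diet difference in WT is thus not shown to differ from that in KO for any of them. A comparison of the diets averaged over both genotypes was added after seeing the data. It was negative for all 33 genes (median -0.61), and 18 (54.5%) had an unadjusted p under 0.05, against 7.45% of all genes. edgeR called 0 of the 33 (0.0249% of all genes) and DESeq2 called 8 lower, against 0.33% of all genes: Btg2, Fosl2, Egr1, Hspb1, Fos, Hspa1a, Nr4a1 and Klf4. Without STD KO 1 edgeR called 1 of the 33, Hspb1 (adjusted p = 0.0368), against 0.0122% of all genes called lower in that fit. Over all 12 libraries the 6 alpha cell markers were also all negative for the averaged diets (median -0.53). Of these 6, 4 had an unadjusted p under 0.05 and edgeR called 1 lower (adjusted p = 0.00919). The 5 erythrocyte (median 0.88) and 6 lymphocyte markers (0.16) were all positive. So were 8 of 9 acinar markers (0.31), while 8 of 9 stellate cell and fibroblast markers were negative (-0.28). The part of these markers was not tested.

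**Figure D4:**
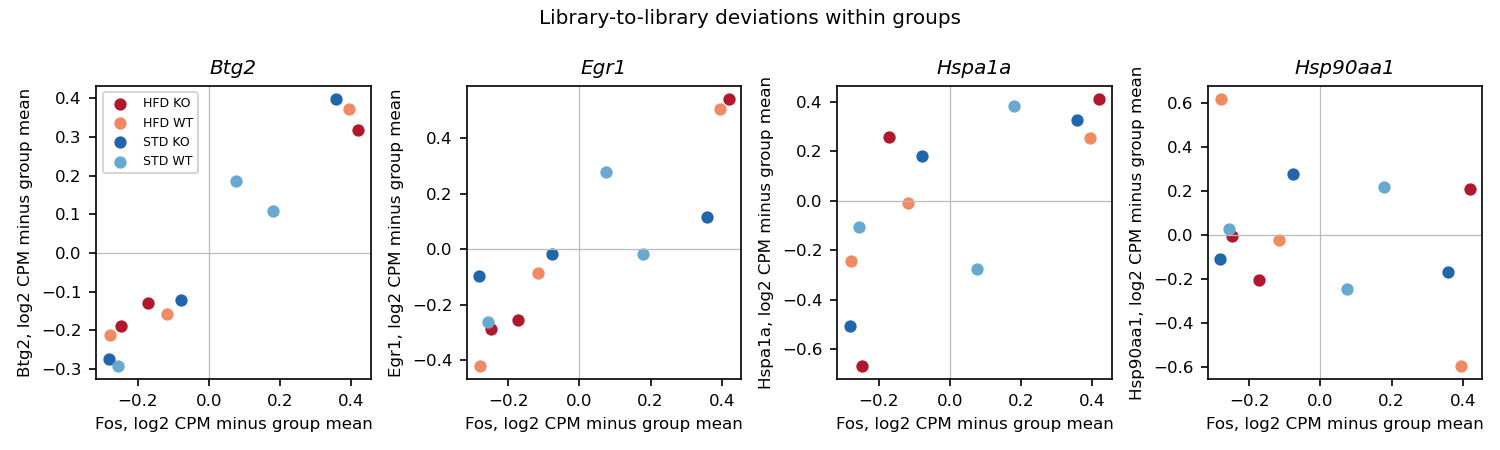
Deviation of Btg2, Egr1, Hspa1a and Hsp90aa1 (vertical axes) against that of Fos (horizontal axes), each as log2 CPM minus the mean of the library's own group; each point is 1 of the 12 libraries, coloured by group. Btg2 (r = 0.97) and Egr1 (r = 0.88) rise with Fos over the 12 libraries, though in STD WT both are highest in library 1 and Fos in library 3, and Hsp90aa1 (r = -0.34) does not.

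Between libraries of the same genotype and diet, many early genes differed in the same direction as Fos. After the group mean was taken from each library, the correlation with Fos over 12 libraries ranged from 0.14 (Gadd45b) to 0.97 (Btg2) over the other 25 early genes, with a median of 0.69, against 0.01 over all 16075 other genes tested. It was at least 0.5 for 19 of the 25 (76.0%), against 9.1% of all genes. It was highest for Btg2 (r = 0.97, rho = 0.94, p = 0.00231), Fosb (r = 0.88, rho = 0.87, p = 0.000772), Egr1 (r = 0.88, rho = 0.90, p = 0.00386) and Jun (r = 0.86, rho = 0.89, p = 0.00386), by exact two-sided permutation of libraries within groups, where 0.000772 is the smallest p the orders can give. Gadd45b, Nr4a2 (r = 0.30) and Ier5 (r = 0.45) were among the early genes that followed Fos least.

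An unadjusted p under 0.05 was found for 14 of the 25 early genes (56.0%) and 1 of the 7 heat shock genes, against 4.9% of all genes. Adjusted over all genes tested, 0 passed by this exact permutation (smallest adjusted p = 0.496). Passing there needed very many genes at or near the smallest p these orders can give, so nothing is drawn from this 0. Adjusted by Benjamini-Hochberg over the 32 relations alone, which is not independent evidence because the genes were chosen with earlier results known, 8 passed: those 4, Dusp1, Zfp36, Fosl2 and Klf4. Same-numbered HFD KO and HFD WT libraries deviated together, so the orders were also restricted to move each such pair as 1, a setting added after seeing the data. With these 216 exact orders the smallest possible p was 0.00463. Of the 25 early genes, 15 had an unadjusted p under 0.05, against 4.83% of all genes. Over all genes 0 passed, but so few orders made passing there all but impossible, and nothing is drawn from it.

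Over the 7 heat shock genes r ranged from -0.34 (Hsp90aa1) to 0.72 (Hspa1a, rho = 0.75, exact permutation p = 0.0363), with a median of 0.03. Without HFD KO 3 and HFD WT 2, the libraries farthest from the median in Fos, r was 0.96 for Btg2, 0.93 for Fosb, 0.76 for Egr1 and 0.82 for Jun, and the median over early genes was 0.62. Then 0 of the 32 passed over the 32 alone (smallest adjusted p = 0.0741), with 144 exact orders of the 10 libraries and a smallest p of 0.00694. Passing needed several genes tied at that smallest p, so nothing is drawn from this 0. The genes share each library's RNA, dissection and depth.

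Other genes of the same pathways were read from lists written by role. Of 50 further early response genes, 45 were negative for the diet comparison in WT (median -0.49) and 34 in KO (median -0.09), with 0 called by edgeR in either. At an unadjusted p under 0.05 there were 21 in WT (42.0%), against 4.74% of all genes, and 4 in KO (8.0%), against 12.5%. DESeq2 called 4 lower in WT, against 0.205% of all genes, and 1 higher in KO, against 0.467%. The smallest p in WT was that of Npas4, an activity-induced factor of neurons and beta cells, with 17.9, 8.29 and 10.5 CPM in HFD WT, against 37.3, 85.5 and 162 CPM in STD WT. Its groups did not overlap (log2 fold change -2.95, SE 0.62, adjusted p = 0.551 in edgeR and 0.000104 in DESeq2). Egr4, the fourth Egr gene, had the smallest p for the diets averaged over genotypes (-3.65, SE 0.69, adjusted p = 0.179 in edgeR and 4.13e-05 in DESeq2). It had 0.371 to 0.483 CPM in HFD KO and at most 0.417 CPM in HFD WT, against 1.29 to 4.21 CPM in STD KO and 1.15 to 10.7 CPM in STD WT.

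For KO against WT on the high fat diet, 6 of the 50 passed with edgeR, 5 higher and 1 lower, against 3.9% of all genes higher and 3.5% lower. DESeq2 called 8 higher and 1 lower there (18.0%, against 12.6% of all genes). Crem, whose products modulate cAMP-driven transcription, rose to 85.7, 74.5 and 52.1 CPM in HFD KO, against 29.2, 16.1 and 20.4 CPM in HFD WT (log2 fold change 1.69, SE 0.26, adjusted p = 0.00274). Gadd45a, a stress-induced growth arrest gene, rose to 17.9, 23.3 and 16.6 CPM, against 5.74, 8.17 and 7.15 CPM in HFD WT (1.46, SE 0.28, adjusted p = 0.00916). Both kept their call without any 1 library. Sgk1, a kinase induced by serum and glucocorticoids, rose to 45.6, 37.1 and 45.2 CPM in HFD KO, against 24, 26.7 and 30.7 CPM in HFD WT (0.65, SE 0.13, adjusted p = 0.0106), and lost the call without HFD WT 1 (adjusted p = 0.0518) or HFD KO 1 (0.0574). Errfi1 (1.08, adjusted p = 0.0385), an inhibitor of the EGF receptor, and Cdkn1a (0.85, adjusted p = 0.0427), the cell cycle inhibitor p21, also passed; these 2 were named after their values were seen. Errfi1 lost the call without any 1 of 6 libraries (STD WT 3, HFD WT 1, 2 or 3, HFD KO 1 or 3; adjusted p up to 0.144) and Cdkn1a without any 1 of 7 (STD WT 1 or 2, STD KO 3, HFD WT 2 or 3, HFD KO 1 or 2; adjusted p up to 0.169). Errfi1 also lost it with limma on log2(FPKM + 1) (adjusted p = 0.105), and Cdkn1a with length-corrected offsets in edgeR (adjusted p = 0.0579). For the interaction 42 of the 50 were positive (median 0.33). edgeR called 0 of them, with 7 at an unadjusted p under 0.05 (14.0%, against 7.91% of all genes). DESeq2 called 1, Sgk1 (0.79, adjusted p = 0.022), against 0.187% of all genes.

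Dusp4, a nuclear MAP kinase phosphatase, was lower in KO on both diets. It fell to 12.3, 12.7 and 12.2 CPM in HFD KO, against 17.1, 23.7 and 18.8 CPM in HFD WT (log2 fold change -0.68, SE 0.14, adjusted p = 0.0124), and to 13.3, 14.1 and 12.1 CPM in STD KO, against 24.4, 26.4 and 23.2 CPM in STD WT (-0.91, SE 0.14, adjusted p = 0.00572). The groups did not overlap on either diet. The call on the high fat diet was lost without HFD KO 1 (adjusted p = 0.0587), without HFD KO 2 and STD WT 3 together (0.0634) and with length-corrected offsets (0.054), and that on the standard diet on log2(FPKM + 0.1) values with limma (adjusted p = 0.0527). With the compared groups fitted alone, the calls on the high fat diet were lost for Dusp4 (adjusted p = 0.0805), Sgk1 (0.0907), Errfi1 (0.0679) and Cdkn1a (0.0765). On the standard diet Dusp4 was the 1 of the 50 genes called, against 0.367% of all genes called lower.

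Of 22 kinases and factors upstream of the early genes, such as Srf, Creb1 and the MAP kinases, 0 passed with edgeR in any comparison, with 1 to 3 at an unadjusted p under 0.05. The 3 were for KO against WT on the high fat diet (13.6%, against 24.3% of all genes). DESeq2 called 2 lower there (9.09%), against 6.09% of all genes called lower, and 1 higher on the standard diet (4.55%), against 2.13% called higher. That 1 was Mapk14, the p38 kinase, with 93.2, 83.5 and 98.5 CPM in STD KO, against 72.5, 67.9 and 71.2 CPM in STD WT, without overlap (log2 fold change 0.38, SE 0.11, adjusted p = 0.182 in edgeR and 0.0179 in DESeq2). Of 35 further genes of HSF1 and the cytosolic chaperones, 34 had enough counts, and Hspa1l did not. Hspb8, a small heat shock protein that acts in autophagy with Bag3, was the 1 of the 34 that passed (called lower, against 3.5% of all genes). It fell to 7.29, 6.42 and 6.26 CPM in HFD KO, against 18.9, 12.5 and 11.6 CPM in HFD WT (-1.11, SE 0.22, adjusted p = 0.0119), and lost the call without HFD KO 2 and STD WT 3 together (0.0656) or HFD WT 1 and STD WT 1 together (0.0625). The median over these chaperones was -0.09 for the diet comparison in WT and -0.13 in KO, against -0.26 and -0.49 over the 7 heat shock genes described first.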

How the data were processed

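RNA of 12 islet libraries, 3 in each of 4 groups, was sequenced from total RNA by Illumina protocols, per the labels. The deposited values are whole-number read counts per Ensembl gene and FPKM per gene, both made by the authors. The submitters' processing notes name TopHat2, Cufflinks, DESeq and mm10, without saying what each did; annotation, read counting and strandedness were not stated. The deposited FPKM equalled count over length and library total for 228600 of 228600 nonzero values (tolerance 1e-05), so FPKM carry no further normalization.

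Counts were tested with edgeR 4.0.16 (quasi-likelihood, TMM factors, filterByExpr with a minimum count of 10 and a minimum total of 15, 1 mean per group over all 12 libraries) and adjusted by Benjamini-Hochberg over 16076 genes at 0.05. The biological coefficient of variation was 0.307, and replicates differed by a chi-square per degree of freedom of 28.6 to 110 (41.5 between STD WT 1 and 2), so the spread between libraries and not counting error set the precision. Alternatives were DESeq2 1.42.0 (its size factors alone, and its Wald test), limma 3.58.1 on log2(FPKM + 1) or log2(FPKM + 0.1), no filter or a stricter one (1 CPM in 6 libraries), the compared groups alone, offsets corrected for gene length, replicate blocks, and each library or 2 pairs of libraries left out. Same-numbered HFD KO and HFD WT libraries deviated together (r = 0.515, 0.41 and 0.336 across genes), while the other group pairs gave -0.4 to 0.186, so the numbers were taken to pair the high fat groups alone. The correlations used log2 CPM with a prior count of 2. Coordinates are from GENCODE M21.

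The 33 genes and all lists were chosen with earlier results of these data known. The rule for naming gave every library's value for Fos, Jun, Egr1, Atf3, Hspa1a, Hspa1b and Hspa8, for genes past the threshold, and for up to 3 genes per comparison and direction of the other lists, or else the 1 with the smallest p. The others of the 33 genes shown by library were chosen after their values were seen.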

Additional observations from a re-analysis of the deposited data

How the results depend on the processing

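Of the 33 values per comparison, the sign turned under at least 1 alternative for 13 (KO against WT, standard diet; up to Nr4a3 at -0.83), 12 (the same on the high fat diet; up to Egr3 at -0.54), 7 (diets in WT; up to Rhob at -0.50), 9 (diets in KO; up to Klf4 at -0.31), 15 (interaction; up to Ier3 at 0.81) and 6 (averaged diets; up to Hsph1 at -0.28). In WT, Klf2 (0.22) became -0.02 on log2(FPKM + 1), -0.03 on log2(FPKM + 0.1) and -0.45 without HFD WT 2 (-0.45 to 0.59 with any 1 library left out). Ier5 (-0.02) was -0.44 to 0.22 with any 1 library left out and 0.34 without HFD WT 1 and STD WT 1 together, where Rhob became 0.14. Of the 33 genes, edgeR called 0 in each comparison, and these counts changed as follows. DESeq2 called 5 for the diet comparison in WT, 2 for that in KO and 8 for the diets averaged over genotypes. Leaving out 1 library at a time gave 0 to 3 for KO against WT on the high fat diet (3 without HFD WT 2), 0 to 2 for the diet comparison in KO (2 without HFD KO 3) and 0 to 1 for the averaged diets (1, Hspb1, without STD KO 1).

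The median over the early genes for the diet comparison in WT was -1.39 to -0.69 with 1 library left out, and the median over the heat shock genes for KO against WT on the high fat diet was -0.24 to 0.26. Without HFD WT 1 and STD WT 1 together, the early medians were -0.51 for the diet comparison in WT and 0.34 for the interaction. The heat shock medians were then -0.62 in WT, 0.26 for KO against WT on the high fat diet, 0.13 for the interaction and -0.74 for the averaged diets. The cause was not tested. Of the 32 correlations with Fos, adjusted over the 32 alone, 8 passed, 9 with the high fat pairs moved together and 0 without HFD KO 3 and HFD WT 2, where fewer orders of libraries exist.

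With the replicate block, over all groups or in the high fat groups alone, 0 of the 33 genes were called in each comparison, and no call among them changed. For KO against WT on the high fat diet the share of all genes called was 7.4% without the block and 12.2% with the block in the high fat groups. Egr2 in HFD WT 1 rested on 15 counts, the lowest of any of the 33 genes.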
